A study of Bos taurus with 30 samples.

Results

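Solute carriers are the membrane proteins that move small molecules into and out of cells and between organelles. All probes with a single symbol of the form SLC, number, letter A, number in the array's annotation were taken, except SLC27A6, SLC22A5, SLC2A3 and SLC34A2. Symbols with another letter, such as SLC35E2B, and probes with several symbols were left out, so not every SLC gene of the array is covered. The rule gave 156 of 13824 probes, for 145 of the 149 genes on the array with symbols of this form. They belong to 41 families and were sorted by family into 11 substrate classes. All 156 probes had enough values to be tested. The study compared, on 30 arrays with 2 colours, the caruncle and the intercaruncular endometrium of pregnant cows. Caruncles are the sites of the ruminant uterus where the placenta attaches, and the tissue between them carries the uterine glands. The pregnancy came from somatic cell nuclear transfer (SCNT, cloning) in 5 animals, while 5 received an embryo fertilised in vitro (IVF-ET) and 5 were pregnant after artificial insemination (AI), with 2 arrays for each animal. No breed, age or day of pregnancy is given in the labels, so the groups are known only by the way the pregnancy was made.

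The uterine lining feeds the conceptus by histotroph, the secretion of its glands, and later through the placenta. Glucose, amino acids, ions, metals and vitamins cross the uterine epithelium on carriers of this superfamily. Some carriers sit in the plasma membrane, others load vesicles or the Golgi, and the SLC25 family serves the inner membrane of mitochondria.

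Each value below is a log ratio between the 2 tissues of 1 animal, taken as log2 and averaged over its arrays. It gives a difference between tissues and no level. Errors are SE of the fit for means over SCNT and IVF-ET, for differences and for any mean printed with a p, and otherwise SD over animals. The base of the logarithm is not stated in the labels, so a fold rests on that reading. Which tissue stands on top is not settled either, so a gene is said to lie on the positive side or on the negative side. The list of uterine gland markers did not settle it: of 14 genes 6 were measured, with medians of 0.07 in SCNT, 0.06 in IVF-ET and -0.01 in AI animals. IVF-ET replicate 3 carried the same dye labels on both arrays, which opposed each other over the solute carrier probes (r = -0.569), and it was left out of every fit. That left 5 SCNT, 4 IVF-ET and 5 AI animals. Over the 14 remaining animals the values follow in the order of the replicates, which for IVF-ET are 1, 2, 4 and 5.

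Each array had a value for 26744 to 27643 of its 27648 spots, and scanner intensities were not used here. The arrays of an animal resembled each other weakly: over the solute carrier probes their correlation had a median of 0.147 across the 15 animals, and of 0.124 over all probes. These correlations were taken after a dye effect per probe was removed. That step takes away a part that opposes between swapped arrays and so favours a positive correlation. The sign of the correlation thus cannot decide whether the values are dye ratios or already turned to the tissues. SCNT replicate 5 stood apart, with 0.794 over solute carriers and a far wider spread, described near the end. The mean AI profile ran against the others. Across solute carrier probes, which are not independent replicates, it correlated at -0.389 with SCNT and at -0.494 with IVF-ET, while IVF-ET correlated with SCNT at 0.614. For this reason the differences from AI appear both ways, with the deposited sign and with the opposite one. The AI animals were not alike, and turning the sign acts on all of them. Over all probes, the arrays of AI replicate 1 correlated with the SCNT mean at 0.467 and -0.064. Those of AI replicate 5 were at 0.185 and 0.143, and those of AI replicates 2, 3 and 4 were all negative. The labels call the animals separate, but nothing says how tissue was sampled within them.

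The first question was which carriers differed between the tissues in the pregnancies made with a transferred embryo. In the mean over SCNT and IVF-ET animals, weighted equally by group, 7 of 156 solute carrier probes passed an adjusted p of 0.05 in limma, or 4.49%, against 3.37% of all 13818 probes tested. The carriers as a set were thus close to the array as a whole, with a median of -0.0052 against -0.0020. On the positive side stood SLC16A11 and SLC18A2, with ratios between the tissues of 2.36 and 2.15 on the linear scale, and SLC30A5, SLC44A1 and SLC31A2. The negative side held SLC40A1 and SLC22A17. Of these 7, SLC30A5, SLC31A2 and SLC40A1 move zinc, copper and iron, and SLC22A17 binds a carrier of iron chelates. They lay on both sides, and 18 of the 21 metal carriers did not pass. SLC22A17 is classed here with carriers of vitamins and organic ions. At an unadjusted p of 0.05 there were 25 of 156 (16%), against 15.1% of all probes. Of single animals, the count was 1 without IVF-ET replicate 1, 2 without IVF-ET replicate 5, 4 without SCNT replicate 1, 2 or 3, and 11 without SCNT replicate 5. Over all probes, 465 passed with every animal, 153 and 263 without these IVF-ET animals, 285, 293 and 338 without SCNT replicates 1, 2 and 3, and 744 without SCNT replicate 5. With IVF-ET replicate 3 kept, 9 carriers and 793 of all probes passed with its first array turned, and 0 of either with its second array turned. Read instead as dye ratios, the values gave 5 other carriers, SLC14A1, SLC1A5, SLC25A24, SLC25A25 and SLC37A3, and none of the 7. Of all probes 252 passed in that reading.

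SLC16A11, a proton-linked carrier of monocarboxylates such as pyruvate, gave the largest mean ratio of the 156 probes over SCNT and IVF-ET. It was at 1.30, 1.47, 1.83, 1.27 and -0.69 in SCNT animals, at 1.77, 0.49, 1.99 and 1.53 in IVF-ET animals and at 0.29, -1.08, -1.16, -1.29 and 0.12 in AI animals. Thus 8 of 9 SCNT and IVF-ET animals were positive, SCNT replicate 5 was the exception, and AI replicates 2, 3 and 4 lay more than 1 unit on the other side. The mean of SCNT and IVF-ET was 1.24 ± 0.24 (SE, adjusted p = 0.00870), a 2.36-fold ratio. Leaving out any 1 of the 14 animals kept the call, with adjusted p up to 0.0444. On the arrays of the animal left out, IVF-ET replicate 3, it was at -2.58 on one and 2.43 on the other.

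SLC18A2, the vesicular monoamine transporter that packs serotonin, dopamine, noradrenaline and histamine into vesicles, was positive on 18 of 18 SCNT and IVF-ET arrays. Its values were 0.65, 1.88, 2.27, 0.67 and 0.45 in SCNT animals, 1.23, 1.54, 0.45 and 0.90 in IVF-ET animals and 0.73, -0.94, -1.32, -1.13 and 0.92 in AI animals. The AI animals split, with 3 below every SCNT and IVF-ET animal and 2 inside their range. The mean was 1.11 ± 0.24 (adjusted p = 0.0201), a 2.15-fold ratio. Without SCNT replicate 2, or IVF-ET replicate 1, 2 or 5, the adjusted p was between 0.0519 and 0.0773.

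**Figure D1:**
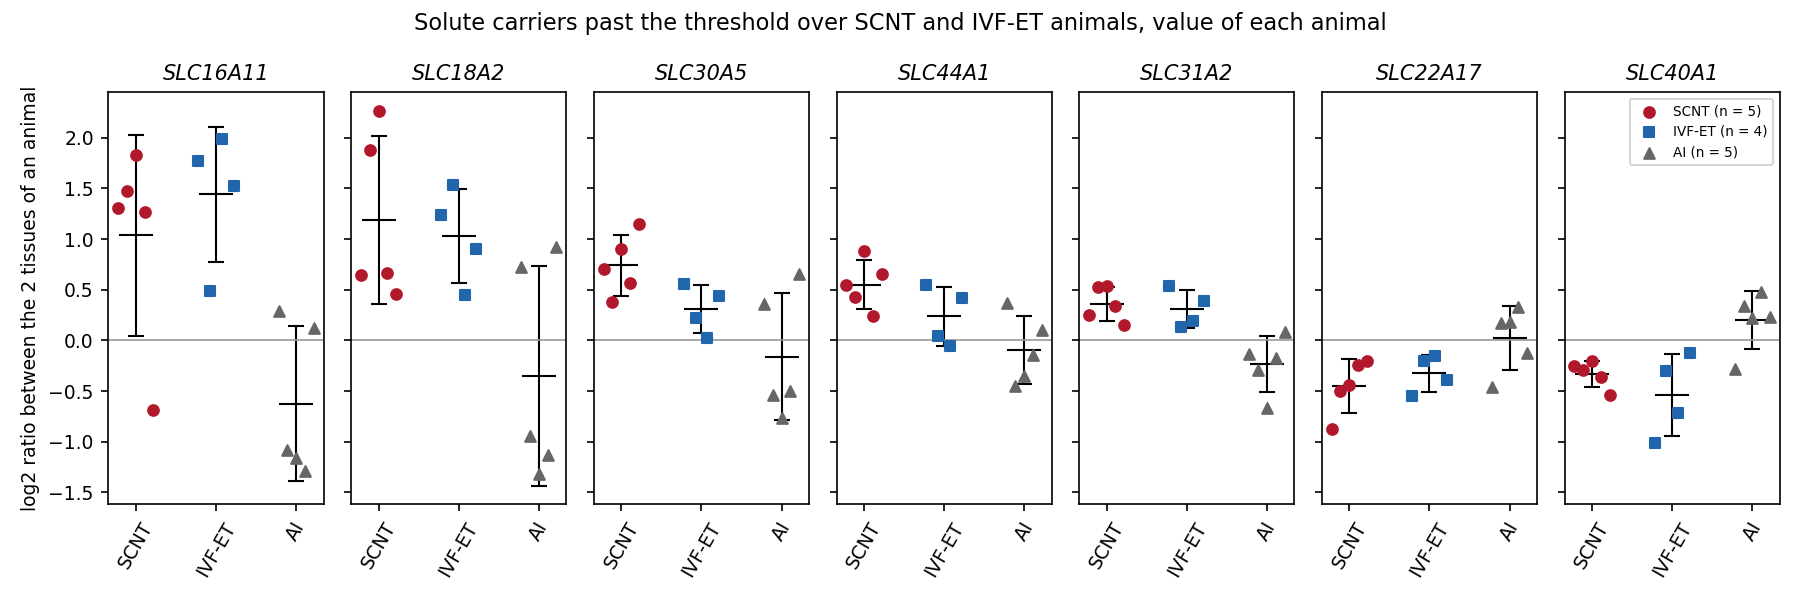
Log2 ratio between the tissues (vertical axis) of the 7 solute carriers past the threshold, 1 panel each, with 1 point per animal in SCNT (n = 5), IVF-ET (n = 4) and AI (n = 5). Horizontal bars are group means and whiskers 1 SD. In the first 5 panels AI replicates 2, 3 and 4 lie below 0, while SLC22A17 and SLC40A1 show the opposite order.

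Zinc carriers of the SLC30 family move zinc out of the cytosol, and SLC30A5 does so into the secretory pathway. It was at 0.70, 0.38, 0.90, 0.57 and 1.15 in SCNT animals, 0.56, 0.22, 0.03 and 0.44 in IVF-ET animals and 0.36, -0.54, -0.76, -0.50 and 0.66 in AI animals. All 9 SCNT and IVF-ET animals were positive, and AI replicates 2, 3 and 4 negative. The SCNT mean was 0.74 ± 0.17 (adjusted p = 0.0392), and the mean of SCNT and IVF-ET 0.53 ± 0.13 (adjusted p = 0.0341). A second probe of the gene was positive in the same 9 animals, at 0.36 ± 0.12, but did not pass (adjusted p = 0.116). With both probes averaged the SCNT mean was at an adjusted p of 0.0800, and on the first spot of each pair alone both means of the gene missed the threshold (0.0575 in SCNT and 0.0553 over SCNT and IVF-ET). The call over both groups was lost without SCNT replicate 1, 3 or 4, or IVF-ET replicate 1, 2 or 5 (adjusted p between 0.0511 and 0.139), and that in SCNT without any 1 SCNT animal or IVF-ET replicate 2, 4 or 5 (between 0.0522 and 0.117).

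SLC31A2, a copper transporter of endosomes and lysosomes, had small positive ratios in every SCNT and IVF-ET animal. They were 0.25, 0.52, 0.53, 0.34 and 0.15 in SCNT animals and 0.54, 0.13, 0.19 and 0.39 in IVF-ET animals, against -0.13, -0.29, -0.66, -0.17 and 0.08 in AI animals. No AI value reached any of the other 9. The mean was 0.34 ± 0.07 (adjusted p = 0.0205), a 1.26-fold ratio, and without SCNT replicate 2 or 3, or IVF-ET replicate 1 or 5, the adjusted p was between 0.0521 and 0.100. SLC31A1, the high-affinity copper uptake carrier, was at 0.15 ± 0.31 in SCNT, 0.19 ± 0.14 in IVF-ET and -0.05 ± 0.51 in AI animals (SD) and did not pass.

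SLC40A1, or ferroportin, is the only known iron exporter of mammalian cells. It was at -0.25, -0.30, -0.20, -0.36 and -0.54 in SCNT animals, at -1.01, -0.30, -0.72 and -0.12 in IVF-ET animals and at -0.28, 0.34, 0.22, 0.48 and 0.23 in AI animals. The 9 SCNT and IVF-ET animals were all negative, 16 of their 18 arrays too, and 4 of 5 AI animals were positive. The mean was -0.43 ± 0.09 (adjusted p = 0.0145), a 1.35-fold ratio. The call was lost without IVF-ET replicate 1, the lowest animal (adjusted p = 0.0705).

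SLC22A17, by sequence an organic cation carrier, is known as a receptor for lipocalin 2, a protein that binds iron-loaded siderophores. It was negative on 18 of 18 SCNT and IVF-ET arrays. The animals were at -0.87, -0.50, -0.44, -0.24 and -0.20 in SCNT, -0.55, -0.20, -0.15 and -0.39 in IVF-ET and -0.46, 0.17, 0.19, 0.33 and -0.13 in AI. AI replicate 1 lay within the range of the others, AI replicate 5 just above it, and AI replicates 2, 3 and 4 were positive. The mean was -0.39 ± 0.09 (adjusted p = 0.0208), and without SCNT replicate 1 or 2, or IVF-ET replicate 1 or 5, the adjusted p was between 0.0512 and 0.0991.

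SLC44A1, a choline transporter that supplies the synthesis of phosphatidylcholine, was at 0.55, 0.43, 0.89, 0.24 and 0.66 in SCNT animals, 0.55, 0.05, -0.05 and 0.42 in IVF-ET animals and 0.37, -0.45, -0.35, -0.15 and 0.10 in AI animals. The SCNT animals were all positive, and the IVF-ET and AI values overlapped. SCNT and AI overlapped too, with AI replicate 1 at 0.37 above SCNT replicate 4 at 0.24. The SCNT mean was 0.55 ± 0.12 (adjusted p = 0.0309), a 1.47-fold ratio, and the mean of SCNT and IVF-ET 0.40 ± 0.09 (adjusted p = 0.0261). Without SCNT replicate 1 or 3, or IVF-ET replicate 1 or 5, the second was at an adjusted p between 0.0574 and 0.123, and without SCNT replicate 1, 2, 3 or 5 the first was between 0.0601 and 0.120. On the first spot of each pair alone, the mean of SCNT and IVF-ET was at an adjusted p of 0.0707. Just outside the threshold stood SLC25A3, the phosphate carrier of mitochondria, at -0.31 ± 0.08 (adjusted p = 0.0545).

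Each sample was whole tissue, in which fewer cells of a type and less RNA per cell cannot be told apart. Markers of epithelium and of stroma also lay away from 0. The median of the epithelial markers, with 20 of 24 measured, was between 0.23 and 0.54 in SCNT animals, between 0.23 and 0.80 in IVF-ET animals and between -0.55 and 0.22 in AI animals, where replicates 2, 3 and 4 were the negative ones. Over SCNT and IVF-ET, 8 of the 20 passed on the positive side, among them CGN, a tight junction protein, at 0.66 ± 0.09 and EZR, which links membranes to actin, at 0.95 ± 0.17 (SE). The median of the stromal and matrix markers, with 19 of 24 measured, was between -0.87 and -0.20 in SCNT, -0.57 and -0.15 in IVF-ET and 0.08 and 0.39 in AI animals, and 8 of the 19 passed on the negative side. SLC18A2 and SLC30A5 had the sign of the epithelial median in 14 of 14 animals. SLC16A11 differed from it in SCNT replicate 5, SLC31A2 in AI replicate 1 and SLC44A1 in IVF-ET replicate 4. SLC22A17 had the opposite sign in every animal, and SLC40A1 in all but AI replicate 5. The part of these cell types in the carrier ratios was not tested.

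Trophoblast can remain attached to the caruncle, so its genes were read too. Of 24 listed genes 13 were measured and 0 passed in limma over SCNT and IVF-ET, while 5 had an unadjusted p under 0.05. Those 5, the pregnancy-associated glycoproteins PAG2, PAG7 and PAG17 and the Kunitz proteins TKDP1 and TKDP4, were all negative, as were 11 of the 13. The median of the list lay between -1.14 and 0.21 in SCNT, -0.27 and -0.03 in IVF-ET and -0.11 and 0.01 in AI animals, the lowest being SCNT replicate 3. Smooth muscle (8 measured), endothelium (10), leukocytes (14) and red blood cells (3) also gave 0 genes past the threshold in limma, and 1, 1, 1 and 0 at an unadjusted p under 0.05, with medians over SCNT and IVF-ET of -0.13, 0.05, 0.06 and 0.01 in that order. Of the 6 gland markers PIGR, the receptor that carries antibodies across epithelia, passed at 0.46 ± 0.09 (adjusted p = 0.0128), and 3 had an unadjusted p under 0.05. These were PIGR and LTF, an iron-binding protein (0.44 ± 0.14), on the positive side and SPP1, an adhesion protein (-0.49 ± 0.16), on the negative side.

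**Figure D2:**
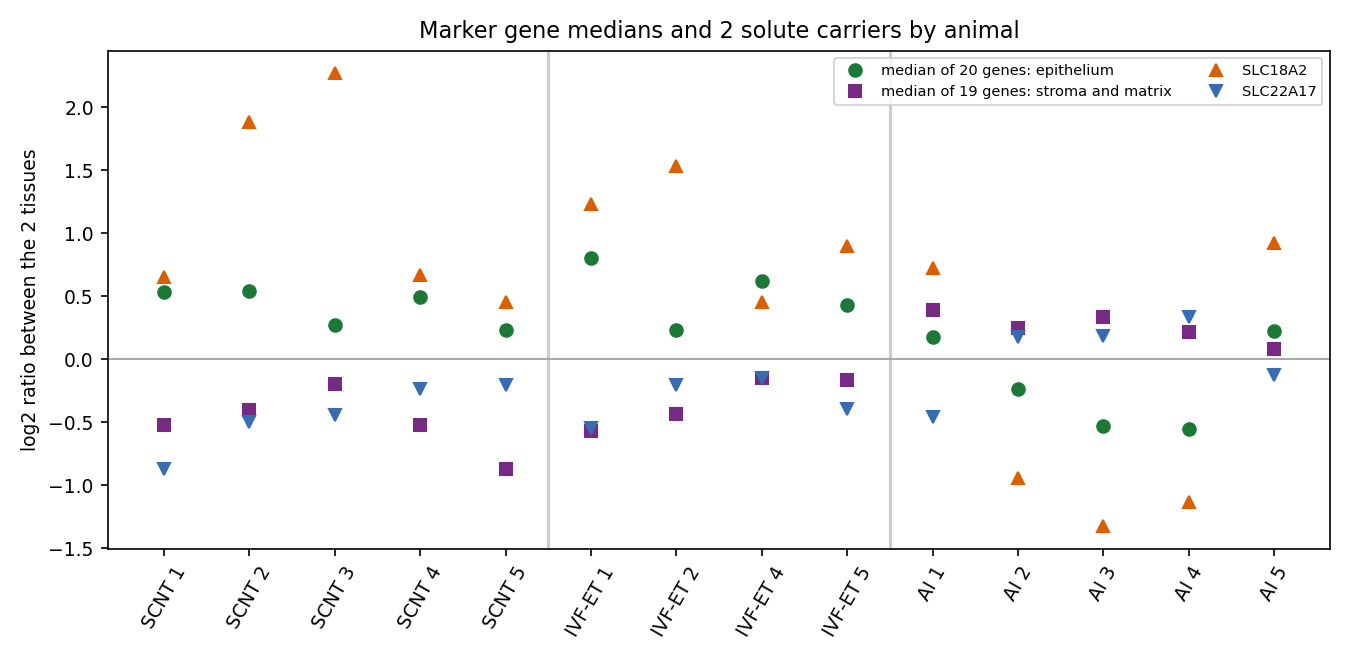
Log2 ratio between the tissues (vertical axis) in each of 14 animals, for the median of 20 epithelial markers (circles), the median of 19 stromal and matrix markers (squares), SLC18A2 (upward triangles) and SLC22A17 (downward triangles). SLC18A2 is positive where the epithelial median is, and both are negative in AI replicates 2, 3 and 4. The other carriers past the threshold are not drawn.

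Taken singly, the groups gave fewer calls. In SCNT animals 2 of 156 solute carrier probes passed, SLC30A5 and SLC44A1 (1.28%), against 1.82% of all probes. In IVF-ET animals 0 passed, as did 0% of all probes, and in AI animals 0, again with 0% of all probes. At an unadjusted p of 0.05 in limma the SCNT group had 24 (15.4%, all probes 14.8%), the IVF-ET group 11 (7.05%, all probes 7.95%) and the AI group 3 (1.92%, all probes 4.37%). The shares of the carriers were near those of the array in SCNT and IVF-ET. In AI the lower share rests on 3 probes at an unadjusted p and was not tested. With all 9 SCNT and IVF-ET animals positive there were 5 of 156 probes (2.2% of all probes): SLC17A5, SLC18A2, both of SLC30A5 and SLC31A2. All 9 were negative for SLC22A17, SLC38A5 and SLC40A1 (3 of 156, all probes 2.12%). In 5 of 5 AI animals 4 probes were positive (all probes 2.73%), those of SLC39A13, SLC6A4, SLC7A5 and the second probe of SLC39A9, and SLC5A10 was negative (all probes 2.2%).

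**Figure D3:**
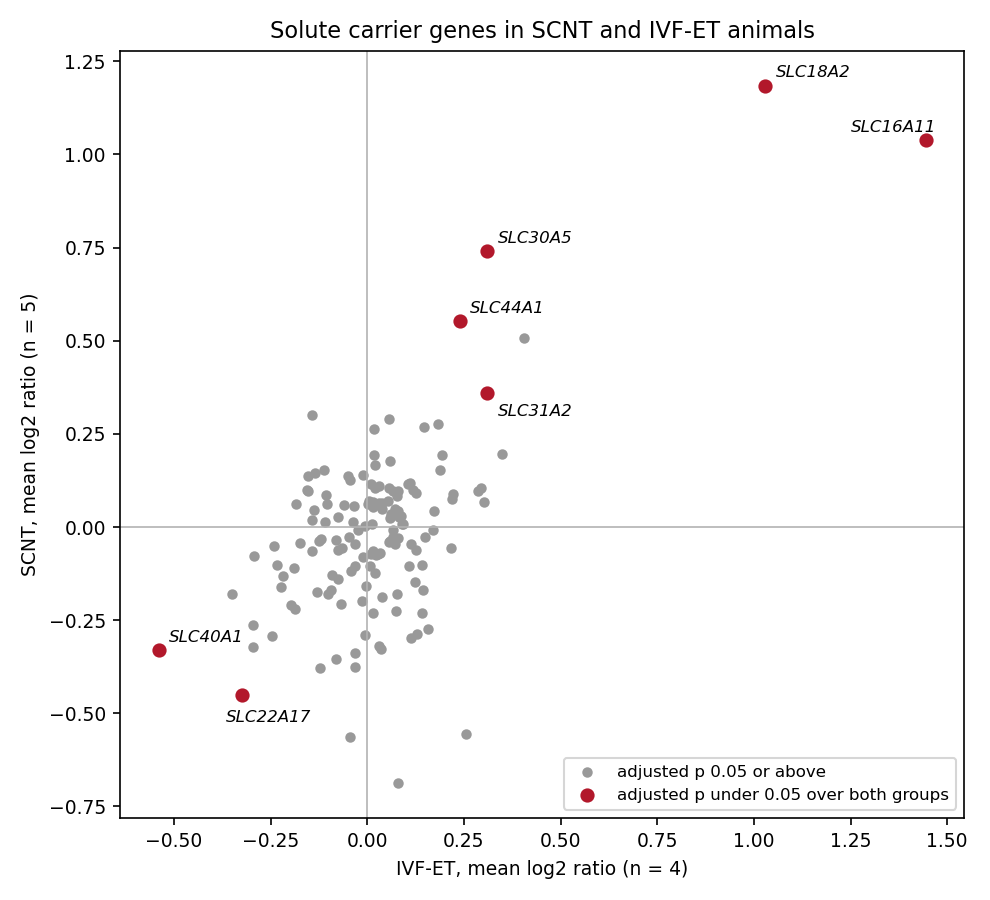
Mean log2 ratio of the 145 solute carrier genes in SCNT animals (vertical axis, n = 5) and in IVF-ET animals (horizontal axis, n = 4), 1 point per gene. Red points passed an adjusted p of 0.05 over both groups. SLC16A11 and SLC18A2 lie alone at the top right, with means between 1.03 and 1.44.

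Whether the tissue difference itself depended on how the pregnancy was made was asked by the differences between groups. No solute carrier probe passed in limma for SCNT minus AI, where 0.948% of all probes did, nor for IVF-ET minus AI (0.0579% of all probes), SCNT minus IVF-ET (0%) or the F test over the 3 groups (0.217%). At an unadjusted p of 0.05 there were 18 of 156 for SCNT minus AI (all probes 12.9%), 10 for IVF-ET minus AI (all probes 8.37%) and 3 for SCNT minus IVF-ET (all probes 4.41%). The smallest adjusted p for a carrier was 0.0597 in SCNT minus AI, 0.174 in IVF-ET minus AI and 0.111 in the F test. With the sign of the AI group turned, the counts past the threshold were 0 of 156 in the same 3 comparisons, and 0 of all probes. SCNT minus AI and IVF-ET minus AI share the AI animals, so they are not independent.

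The 5 carriers with the smallest p in SCNT minus AI were all among the 7 above. Both choices rest on the same SCNT animals and the same spread per probe, so this overlap is partly built in. The difference was 0.59 ± 0.14 for SLC31A2 (adjusted p = 0.0597), 0.65 ± 0.17 for SLC44A1 (0.0919), 1.66 ± 0.45 for SLC16A11 (0.0925), 0.90 ± 0.24 for SLC30A5 (0.0969) and 1.53 ± 0.46 for SLC18A2 (0.133). In IVF-ET minus AI they were 2.07 ± 0.47 for SLC16A11, -0.74 ± 0.18 for SLC40A1, 0.55 ± 0.15 for SLC31A2, 1.38 ± 0.49 for SLC18A2 and -0.51 ± 0.20 for SLC35A1, with adjusted p of 0.174 or more. None of these passed. With the AI sign turned, the SCNT minus AI difference was 0.41 ± 0.45 for SLC16A11, 0.83 ± 0.46 for SLC18A2, 0.58 ± 0.24 for SLC30A5, 0.13 ± 0.14 for SLC31A2 and 0.46 ± 0.17 for SLC44A1, and 8 of 156 had an unadjusted p under 0.05 (all probes 6.48%). For IVF-ET minus AI it was 0.82 ± 0.47 for SLC16A11, -0.34 ± 0.18 for SLC40A1, 0.08 ± 0.15 for SLC31A2, 0.68 ± 0.49 for SLC18A2 and -0.19 ± 0.20 for SLC35A1, and 3 of 156 had an unadjusted p under 0.05 (all probes 3.76%). Of the AI animals, replicates 2, 3 and 4 had the opposite sign for 7 of the 7 carriers, and replicates 1 and 5 shared the sign of the SCNT and IVF-ET means for 6. Without SCNT replicate 5, SLC16A11 and SLC31A2 passed in SCNT minus AI, and SLC16A11 in IVF-ET minus AI and in the F test. Of all probes 241, 37 and 113 then passed, in that order. Without AI replicate 1, SLC16A11, SLC44A1 and both SLC30A5 probes passed in SCNT minus AI, and without AI replicate 5, SLC18A2, SLC30A5 and SLC31A2. All probes gave 268 and 234 there, against 131 with every animal. The arrays of AI replicate 1 disagreed, with SLC16A11 at 1.78 and -1.20 and SLC18A2 at 1.97 and -0.52.

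Between the 2 groups with transferred embryos, SLC10A2 gave the smallest p. This sodium-dependent carrier takes up bile acids in the ileum. It was at -0.48, -0.30, -0.10, -0.10 and -0.45 in SCNT animals and 0.15, 0.35, 0.12 and -0.11 in IVF-ET animals, and the groups overlapped only at their edge. The difference was -0.42 ± 0.13 (p = 0.00522, adjusted p = 0.915, limma). Next came SLC1A4, a carrier of alanine, serine and cysteine, at 0.44 ± 0.17, SLC16A3, which exports lactate from glycolytic cells, at -0.27 ± 0.11, SLC5A6, which takes up biotin and pantothenate, at -0.43 ± 0.20, and SLC25A51, the mitochondrial carrier of NAD, at 0.25 ± 0.13. SLC16A3 was positive in 4 of 4 IVF-ET animals (0.24, 0.21, 0.05 and 0.37) and in 1 of 5 SCNT animals (-0.01, -0.02, -0.13, -0.16 and 0.04). All 5 had an adjusted p of 0.915.

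By substrate class, most carriers lay near a ratio of 0. In SCNT animals 123 of 156 probes had a mean within 0.25 of 0 on the log2 scale, in IVF-ET animals 138 and in AI animals 152, which is 78.8%, 88.5% and 97.4%, against 83.2%, 89.2% and 94.8% of all probes. The median over the 156 probes was -0.01 in SCNT, 0.02 in IVF-ET and -0.00047 in AI animals. Of 11 genes with more than 1 probe, 5 had probes of different sign over SCNT and IVF-ET, namely SLC13A2, SLC19A3, SLC29A3, SLC39A9 and SLC7A5, with each of these probes within 0.25 of 0.

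**Figure D4:**
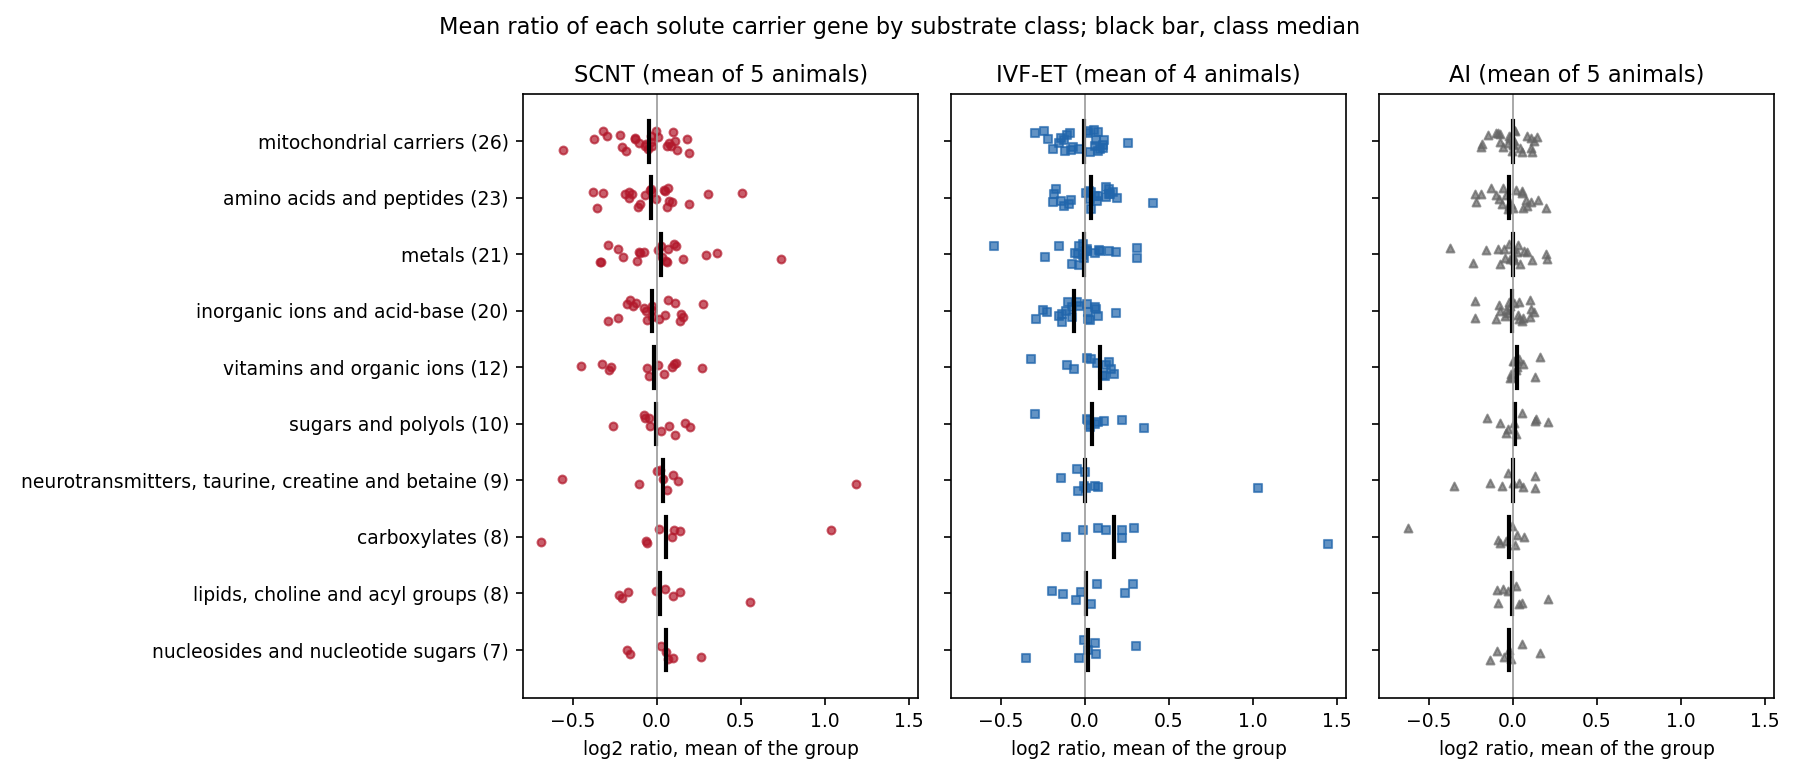
Mean log2 ratio (horizontal axis) of each solute carrier gene by substrate class (rows, with the number of genes), in SCNT, IVF-ET and AI animals from left to right. Points are genes and black bars class medians. The class of the urea transporter SLC14A1 alone is not drawn. The drawn class medians lie between -0.06 and 0.17, and single genes of the carboxylate and neurotransmitter classes stand far from their class.

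Amino acid and peptide carriers made up 23 genes, and 0 of 23 passed over SCNT and IVF-ET (3 at an unadjusted p under 0.05 in limma), with 12 means positive and 11 negative. The class median of the group means was -0.04 in SCNT, 0.04 in IVF-ET and -0.02 in AI animals. SLC1A1, which takes up glutamate and aspartate, had the highest mean: 1.43, 0.27, 0.79, 0.64 and -0.59 in SCNT animals, 0.26, 0.27, 0.07 and 1.03 in IVF-ET animals and 0.66, -0.24, -0.77, -0.51 and 0.21 in AI animals. It was positive in 8 of 9 SCNT and IVF-ET animals, at 0.46 ± 0.17 (adjusted p = 0.194), and AI replicates 2, 3 and 4 were again negative. SLC38A5, a carrier of glutamine and other neutral amino acids, was negative in 9 of 9, at -0.91, -0.18, -0.37, -0.11 and -0.33 in SCNT animals and -0.27, -0.07, -0.05 and -0.10 in IVF-ET animals, against -0.17, -0.38, 0.66, 0.35 and -0.03 in AI animals (mean -0.25 ± 0.10, adjusted p = 0.215). SLC36A2, a proton-coupled carrier of small amino acids, was at 0.19 ± 0.29 in SCNT, 0.19 ± 0.18 in IVF-ET and -0.19 ± 0.16 in AI animals (SD), negative in 4 of 5 AI animals.

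SLC7A5, or LAT1, exchanges leucine and other large neutral amino acids as a dimer with SLC3A2. SLC7A5 was at -0.06, 0.03, -0.20, 0.03 and 0.02 in SCNT, -0.07, -0.03, 0.26 and 0.07 in IVF-ET and 0.59, 0.07, 0.20, 0.13 and 0.0027 in AI animals, and its AI mean had an unadjusted p of 0.0331. A second SLC7A5 probe lay on the other side over SCNT and IVF-ET, at -0.17. SLC3A2 was at 0.04, 0.0031, -0.53, -0.09 and -1.02 in SCNT animals, of which replicates 3 and 5 were the lowest, and at 0.03 ± 0.18 in IVF-ET and 0.08 ± 0.22 in AI animals. The other amino acid carriers described in ruminant endometrium had small means over SCNT and IVF-ET: SLC38A2 0.11 ± 0.10, SLC1A4 0.08 ± 0.08, SLC1A5 0.05 ± 0.12, SLC1A2 0.04 ± 0.07, SLC1A3 -0.15 ± 0.08, SLC43A2 0.06 ± 0.06, SLC7A7 -0.06 ± 0.07 and the lysosomal SLC15A3 -0.01 ± 0.09. None passed, and SLC1A5, the glutamine carrier, ranged from -0.56 to 0.76 among the AI animals alone.

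Of 10 sugar and sugar phosphate carriers 0 passed over SCNT and IVF-ET, and 2 had an unadjusted p under 0.05 in limma. Over the class, gene means had a median of -0.01 in SCNT, 0.04 in IVF-ET and 0.01 in AI animals. SLC5A1, the sodium-coupled glucose carrier of epithelia, was at 0.37, 0.44, 0.20, 0.01 and -0.04 in SCNT, 1.01, 0.40, -0.16 and 0.15 in IVF-ET and 0.48, 0.0048, -0.29, 0.06 and 0.39 in AI animals, with a mean over SCNT and IVF-ET of 0.27 ± 0.11 (adjusted p = 0.203). Its kidney relative SLC5A2 lay on the other side, at -0.29, -0.46, -0.01, -0.37 and -0.17 in SCNT and -0.52, -0.44, 0.08 and -0.30 in IVF-ET animals, or -0.28 ± 0.09 (adjusted p = 0.130). The facilitative glucose carriers were close to 0. SLC2A1 was at 0.03 ± 0.13, the insulin-responsive SLC2A4 at 0.15 ± 0.12 and SLC2A8 at 0.07 ± 0.07. In AI animals SLC2A1 spread from -1.08 in replicate 1 to 0.56 in replicate 4. SLC37A4, which brings glucose 6-phosphate into the endoplasmic reticulum, was at -0.04 ± 0.25 in SCNT, 0.06 ± 0.11 in IVF-ET and 0.14 ± 0.17 in AI animals. SLC37A1, another carrier of glucose 6-phosphate, was at 0.17 ± 0.32, 0.02 ± 0.17 and -0.04 ± 0.25, and SLC5A10 at -0.08 ± 0.24, 0.02 ± 0.31 and -0.15 ± 0.10, in the same order of groups.

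The 8 carboxylate carriers had the highest class median in IVF-ET animals. Their median was 0.05 in SCNT, 0.17 in IVF-ET and -0.02 in AI animals, and the IVF-ET animals had class medians of 0.15, 0.22, 0.05 and 0.23. Besides SLC16A11, 0 of the other 7 passed. SLC16A5, a monocarboxylate carrier, was at 0.15, 0.38, -0.16, 0.23 and -0.14 in SCNT, 0.29, 0.23, 0.14 and 0.22 in IVF-ET and 0.10, -0.08, 0.26, 0.04 and 0.03 in AI animals (mean of SCNT and IVF-ET 0.16 ± 0.06, adjusted p = 0.229). SLC16A7, a high-affinity carrier of pyruvate and lactate, was near 0 in 4 SCNT animals and at -3.65 in SCNT replicate 5, on both of its arrays (-3.60 and -3.70).

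Metal carriers held 3 of the 7 calls among 21 genes, SLC30A5 and SLC31A2 on the positive and SLC40A1 on the negative side. Of all probes 3.37% passed there. The means over SCNT and IVF-ET were positive for 9 metal carriers and negative for 12. As a class they had a median of 0.03 in SCNT, -0.01 in IVF-ET and 0.00067 in AI animals. The other 18 genes did not pass. SLC11A2, which takes up ferrous iron, was at 0.29 ± 0.20 in SCNT, 0.06 ± 0.21 in IVF-ET animals (SD), and scattered around 0 with an SD of 0.43 in AI animals. SLC39A14, which takes up iron and zinc, was at 0.07 ± 0.13 in SCNT, 0.01 ± 0.11 in IVF-ET and 0.0023 ± 0.33 in AI animals. SLC30A1, which exports zinc from the cell, was at 0.06 ± 0.10 in SCNT, -0.06 ± 0.13 in IVF-ET and 0.08 ± 0.19 in AI animals. SLC39A4, the intestinal zinc importer, was positive in 4 SCNT animals, between 0.15 and 0.73, and at -2.99 in SCNT replicate 5. These 4, like SLC31A1 above, were chosen for their roles after values were seen.

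Mitochondrial carriers, the largest class with 26 genes, had 0 calls (3 at an unadjusted p under 0.05 in limma), and 17 of the 26 means over SCNT and IVF-ET were negative. The class median of the group means was -0.04 in SCNT, -0.01 in IVF-ET and -0.00038 in AI animals. SLC25A3, which brings phosphate to the ATP synthase, was at -0.12, -0.57, -0.69, 0.01 and -0.24 in SCNT animals, -0.68, -0.28, -0.01 and -0.20 in IVF-ET animals and 0.0011, -0.14, 0.24, 0.11 and -0.16 in AI animals. It was negative in 8 of 9 SCNT and IVF-ET animals. SLC25A11, the oxoglutarate and malate exchanger, was at -0.14 ± 0.07, SLC25A33, a carrier of pyrimidine nucleotides, at -0.17 ± 0.08, and SLC25A17, which serves peroxisomes, at -0.15 ± 0.08. SLC25A24, an exchanger of ATP-magnesium and phosphate, was at -0.10 ± 0.08, SLC25A51 at -0.03 ± 0.06 and SLC25A42, a coenzyme A carrier, at 0.03 ± 0.09. Their adjusted p was between 0.327 and 0.932.

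Carriers of neurotransmitters, taurine, creatine and betaine numbered 9, and SLC18A2 alone passed. Over the class, gene means had a median of 0.04 in SCNT, 0.0031 in IVF-ET and 0.0013 in AI animals. Monoamines are taken up at the plasma membrane by carriers of the SLC6 family. Of these SLC6A4, for serotonin, was at 0.29, 0.01, -0.21, -0.01 and -0.07 in SCNT, -0.0012, -0.20, 0.10 and 0.07 in IVF-ET and 0.01, 0.04, 0.31, 0.15 and 0.15 in AI animals, positive in 5 of 5 AI animals at a mean of 0.13 ± 0.08 (unadjusted p = 0.117). SLC6A3, the dopamine carrier, was between -0.19 and 0.24 in 4 SCNT animals and at -2.66 in SCNT replicate 5. The noradrenaline carrier SLC6A2 was at 0.06 ± 0.26 in SCNT, 0.0031 ± 0.25 in IVF-ET and -0.06 ± 0.19 in AI animals (SD) and was chosen after its values were seen. The taurine carrier SLC6A6 averaged 0.05 ± 0.07 over SCNT and IVF-ET, the creatine carrier SLC6A8 0.09 ± 0.09 and the glycine carrier SLC6A9 -0.06 ± 0.09.

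Carriers of inorganic ions and of acid and base, 20 genes, had 0 calls in limma, 2 genes at an unadjusted p under 0.05 and 13 negative means over SCNT and IVF-ET. Their median was -0.03 in SCNT, -0.06 in IVF-ET and -0.0038 in AI animals. SLC17A5, or sialin, which exports sialic acid from lysosomes, was positive in 9 of 9 animals, at 0.04, 0.30, 0.15, 0.07 and 0.82 in SCNT and 0.36, 0.15, 0.09 and 0.13 in IVF-ET, against 0.14, 0.04, -0.09, -0.62 and -0.58 in AI animals. Its mean was 0.23 ± 0.09 (adjusted p = 0.230). It stands in this class by its family, although sialic acid is no inorganic ion. SLC9A5, a sodium-proton exchanger, was at -0.27 ± 0.11 and SLC12A2, which brings in sodium, potassium and chloride, at -0.19 ± 0.11. The phosphate carrier SLC20A1 (-0.01 ± 0.09), the sodium-calcium exchanger SLC8A1 (-0.04 ± 0.10) and the sulfate carrier SLC26A2 (0.02 ± 0.09) were close to 0. SLC14A1, the urea transporter, stood in a class of its own and scattered widely, from -1.11 to 0.44 in SCNT, from -0.70 to 0.58 in IVF-ET and from -0.86 to 0.36 in AI animals.

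Among 8 carriers of lipids, choline and acyl groups only SLC44A1 passed. As a class they had a median of 0.02 in SCNT, 0.01 in IVF-ET and -0.0035 in AI animals. SLC44A4, of the same family, was at 0.19 ± 0.11 over SCNT and IVF-ET and did not pass. SLC27A2, which takes up and activates long fatty acids, was at -0.20 ± 0.08 (adjusted p = 0.195), and SLC33A1, which brings acetyl-CoA into the endoplasmic reticulum, at 0.14 ± 0.21 in SCNT, -0.05 ± 0.04 in IVF-ET and 0.21 ± 0.31 in AI animals (SD).

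Of 7 carriers of nucleosides and nucleotide sugars 0 passed over SCNT and IVF-ET, and 1 had an unadjusted p under 0.05 in limma. The class median of the group means was 0.06 in SCNT, 0.02 in IVF-ET and -0.02 in AI animals. SLC35A1, which brings CMP-sialic acid into the Golgi, was at -0.08, -0.15, -0.64, -0.56 and 0.54 in SCNT, -0.34, -0.56, -0.22 and -0.28 in IVF-ET and -0.10, 0.33, -0.05, 0.39 and 0.23 in AI animals, or -0.27 ± 0.10 over SCNT and IVF-ET (adjusted p = 0.187). It was negative in 8 of 9 animals, and SCNT replicate 5 was again the one apart. SLC29A1, the equilibrative nucleoside carrier, was at 0.07 ± 0.53 in SCNT, 0.30 ± 0.32 in IVF-ET and -0.01 ± 0.33 in AI animals (SD). SLC35A4 averaged -0.08 ± 0.06 and SLC35A5 0.14 ± 0.09 over SCNT and IVF-ET.

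Carriers of vitamins and organic ions numbered 12, with SLC22A17 the 1 call. Over the class, gene means had a median of -0.02 in SCNT, 0.09 in IVF-ET and 0.02 in AI animals. SLC19A1, the reduced folate carrier, was at -0.0042, -0.15, -0.32, -0.35 and -0.82 in SCNT animals, all negative and the first close to 0, and at 0.01, 0.07, 0.16 and -0.09 in IVF-ET and 0.19, 0.02, 0.69, 0.10 and -0.34 in AI animals. Its SCNT mean was -0.33 ± 0.12 (adjusted p = 0.208). SLC19A2, which carries thiamine, was at 0.11 ± 0.09 over SCNT and IVF-ET, SLC22A18, in humans an imprinted gene, at 0.11 ± 0.07, and SLC5A6 at -0.06 ± 0.10.

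SCNT replicate 5 had values of its own for many carriers. Over the 156 probes its SD was 0.739, against 0.236 to 0.361 in the other SCNT animals, 0.236 to 0.327 in IVF-ET and 0.268 to 0.345 in AI animals. In it 15 probes lay beyond 1 on the log2 scale, 14 of them negative, while no other animal had more than 4. The same held for the whole array, where 9.14% of probes lay beyond 1 in this animal and at most 1.03% in any other. The lowest were SLC16A7 (-3.65), SLC25A22, a mitochondrial glutamate carrier (-3.28), SLC39A4 (-2.99), SLC6A3 (-2.66) and SLC25A28, which brings iron into mitochondria (-2.16). SLC30A5, at 1.15, was the one high value. SLC25A22, SLC39A4 and SLC25A28 lie outside the naming rule and were chosen after their values were seen. Without this animal 11 solute carrier probes passed over SCNT and IVF-ET, against 7 with it, and 744 of all probes against 465, the added ones being SLC1A1, SLC25A3, SLC35A1 and SLC39A6. In SCNT animals SLC16A11, SLC18A2 and SLC22A17 then passed in place of SLC30A5 and SLC44A1, with 230 of all probes against 252.

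**Figure D5:**
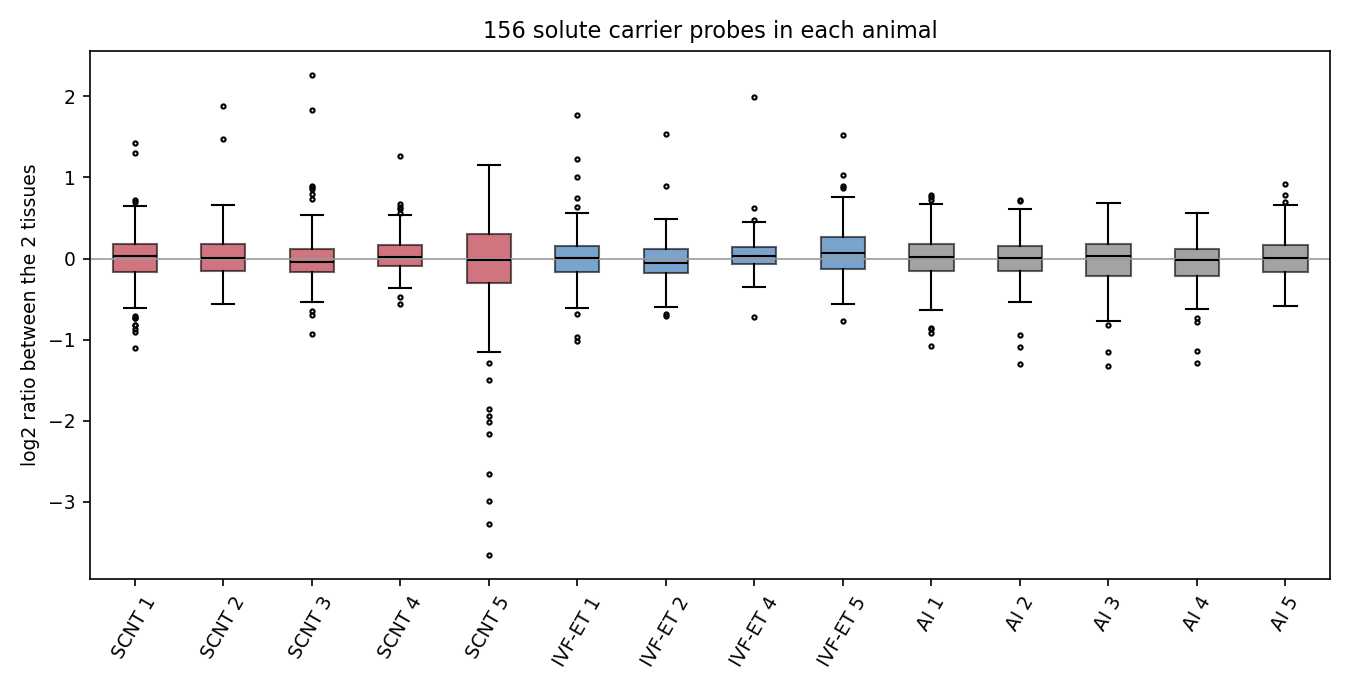
Log2 ratio between the tissues (vertical axis) of the 156 solute carrier probes in each of 14 animals. Boxes span the quartiles with the median as a line, whiskers reach the last probe inside the usual box-plot limits and dots are probes beyond. SCNT replicate 5 has the widest box and a tail down to -3.65.

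Other transport genes were read from lists by family. Of 9 measured sodium pump subunits, the pump that sustains sodium-coupled carriers, 0 passed over SCNT and IVF-ET in limma and 1 had an unadjusted p under 0.05, and ATP1B1, its beta subunit, was at 0.32 ± 0.09 (SE, adjusted p = 0.0643). Of 6 partners and scaffolds 0 passed in limma and 2 had an unadjusted p under 0.05, with PDZK1 at 0.39 ± 0.12 and NHERF2 at -0.39 ± 0.11, and BSG, the partner of lactate carriers, at -0.82 ± 1.24 in SCNT animals (SD). The counts in limma were 0 of 5 for organic anion carriers of the SLCO families, 0 of 20 for carriers of the superfamily under other symbols and 0 of 22 for ABC transporters, with 0, 4 and 5 at an unadjusted p under 0.05 in that order. The closest of them was ABCG2, an exporter of many drugs and urate, at -0.21 ± 0.06 (adjusted p = 0.062). Of 4 aquaporins AQP4, a water channel, passed at 0.68 ± 0.14 (adjusted p = 0.0131), with means of 0.94 ± 0.44 in SCNT, 0.42 ± 0.24 in IVF-ET and -0.30 ± 0.61 in AI animals (SD). It was the 1 gene of these lists that passed. Of 21 measured carriers known from ruminant endometrium, SLC40A1 passed, on the negative side.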

How the data were processed

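The study hybridised caruncular and intercaruncular RNA of each animal on arrays with 2 colours and 27648 spots, 2 arrays per animal with the dyes swapped. Per the labels' protocols, RNA was extracted with Trizol and columns and labelled with Cy3 and Cy5. The authors deposited 1 signed log ratio per spot and array, taken here as log2. Its base, channel order, normalisation and tissue direction are not given in the sources used here.

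Adjacent duplicate spots were averaged, giving 13824 probes. Arrays were centred on their median, read as already turned to the tissues, and averaged per animal after a dye effect per probe was taken off. The animal was the replicate. IVF-ET replicate 3 was left out. A probe missing in more than 1 animal of a group was not tested, which left 13818 probes. limma 3.58.1 (R 4.3.3) fitted lmFit and eBayes over the 14 animals, with a common spread per probe over the groups and Benjamini-Hochberg adjustment over all probes tested. The fit was tested on simulated data. Without counts or intensities, depth and signal over background are unknown, and the number of animals limits the precision. Arrays were numbered group by group, and an effect of array order cannot be told apart from the group.

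Genes were named by the platform annotation, and 145 of 145 symbols were found in RefSeq. Where a gene had several probes, the one with most values stands for it. Named genes are those past the threshold in any comparison, the 2 of each class with the smallest p in each group, the 5 with the smallest p in each difference and in the F test, and the measured carriers known from ruminant endometrium. The members, classes and lists were chosen with earlier results of these data known. Alternatives changed the reading of the ratio, the sign of AI, the treatment of IVF-ET replicate 3, the dye effect, scaling, filters, spots, weights, moderation and the animals used. No genome was used, so no position or sequence is given.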

Additional observations from a re-analysis of the deposited data

Results flagged for a closer look

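In groups of 4 or 5 animals, 12 of 216 values tested had 1 animal far from the rest (5.56%), where chance gives about 1 in 20. SCNT replicate 5 stood low for SLC16A11 (-0.69, others 1.27 to 1.83), SLC16A7 (-3.65, others -0.07 to 0.15) and SLC6A3 (-2.66, others -0.19 to 0.24). SLC25A51 stood high in SCNT replicate 3 (0.31, others -0.0024 to 0.06) and SLC6A9 low in SCNT replicate 1 (-0.71, others 0.05 to 0.31). In IVF-ET animals SLC5A10 was high in replicate 1 (0.49), SLC20A1 low in replicate 2 (-0.68) and SLC6A6 high in replicate 5 (0.45). The median of the carriers of neurotransmitters, taurine, creatine and betaine was low in IVF-ET replicate 2 (-0.13, others 0.06 to 0.09). In AI animals SLC12A2 was high in replicate 2 (0.71), SLC29A1 high in replicate 1 (0.57) and SLC6A9 low in replicate 4 (-0.19).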

How the results depend on the processing

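The sign and the identity of the called carriers rest on how the deposited ratio is read. As dye ratios, the means over SCNT and IVF-ET turned to 0.0082 for SLC22A17, -0.13 for SLC31A2, -0.12 for SLC44A1 and -0.087 for SLC16A11, and the SCNT means to -0.0102 for SLC30A5 and -0.047 for SLC44A1. That reading gave 0 carriers past the threshold in SCNT, 4 in AI (SLC14A1, SLC26A2, SLC33A1 and SLC7A9) and 5 over SCNT and IVF-ET. All probes gave 0, 362 and 252 in that order. As deposited, the counts were 2 in SCNT, 0 in IVF-ET, 0 in AI and 7 over SCNT and IVF-ET (all probes 252, 0, 0 and 465). With IVF-ET replicate 3 kept and its first array turned, they were 2 in IVF-ET, 9 over SCNT and IVF-ET and 1 in IVF-ET minus AI (all probes 79, 793 and 33). With its second array turned they were 0 in SCNT and 0 over both (all probes 0 and 0). Scaled arrays gave 4 in SCNT (all probes 344). Groups fitted alone gave 0 in SCNT, 2 in IVF-ET and 1 in IVF-ET minus AI (all probes 74, 105 and 18). Weights per animal gave 10 in SCNT, 2 in IVF-ET, 18 over both, 2 in SCNT minus AI, 2 in IVF-ET minus AI and 3 in the F test, where all probes gave 740, 233, 1298, 265, 66 and 148 in that order. The test with no moderation gave 0 in SCNT and 0 over both (all probes 9 and 163), and the first spot only gave 1 in SCNT minus AI (all probes 135). Leaving out 1 animal gave 0 to 3 in SCNT, 0 to 1 in IVF-ET, 1 to 11 over both, 0 to 4 in SCNT minus AI, 0 to 1 in IVF-ET minus AI and 0 to 1 in the F test. All probes then gave 2 to 325, 0 to 21, 153 to 744, 5 to 268, 0 to 37 and 2 to 113 in that order. SCNT minus IVF-ET stayed at 0 in every setting run. The cause was not tested. Of the single calls under the other settings 86 kept side and threshold, 27 lost the threshold and 6 turned, and with 1 animal left out 91 kept it and 35 lost it. Part of this was fixed beforehand. Turning the AI sign cannot change these means, and the dye effect cancels between the swapped arrays of an animal. All 9 calls stayed under either setting. AI animals enter these calls only by the common spread, and all 9 stayed without any 1 of them, within the 91. Carriers that passed only under some setting were SLC1A1, SLC16A5, SLC25A3, SLC25A12, SLC25A48, SLC29A1, SLC35A1, SLC39A6, SLC46A3, SLC5A2 and SLC9A5, besides those of the dye reading. The tissues were paired within each animal. No pairing between groups was possible because the replicate numbers of the groups name different animals.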

Other observations

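AQP4, whose probe lies next to that of SLC30A5 in the order of the array's rows, gave 0.68 over SCNT and IVF-ET (adjusted p = 0.0131, limma), and the neighbour on the other side, ZC3H7A, 0.06. The neighbours of the other 6 called carriers lay between -0.16 and 0.11, and 0 of them passed. Over 13811 pairs of neighbouring probes the correlation was 0.048. The second SLC30A5 probe, which lies elsewhere in that order, was at 0.36. The dye effect of a solute carrier probe, the part of its ratio that changed sign with the dyes, had a median size of 0.09, against 0.08 for its mean over SCNT and IVF-ET.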
